A study of Homo sapiens with 2 samples.

Results

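The genes described here encode 7 subunits of LASR, the Large Assembly of Splicing Regulators: HNRNPM, HNRNPC, HNRNPUL2, MATR3, ILF2, DDX5 and NCOA5. Each gene locus of the deposited isoform models was given the GENCODE gene with which it shared most exonic sequence on the same strand (hg38), and loci with the symbol of a subunit were kept. Of the 7 genes, 6 had such a locus and 5 had listed edit positions. In all, 12869 loci had an isoform model, and 10116 of these had a listed position. The loci of the 5 genes held 112 of the 213041 distinct positions at loci of both libraries. The cells were HEK293T, an immortalised human embryonic kidney line named HEK293XT in the cell line label. Per the methods of the study, fixed cells first received a rabbit antibody against RBFOX2 and then APO1-Nb, in which APOBEC1, an enzyme that deaminates cytosine, is joined to a nanobody recognising rabbit antibodies, so that cytosines near RBFOX2 are changed to uracil (RBFOX2-INSCRIBE). The enzyme-only control received APO1-Nb without the RBFOX2 antibody. Full-length cDNA was read on a PacBio instrument, and 1 library per group was analysed here, so no difference below has a replicate check and no p-value is given.

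LASR is a protein complex of the nucleus that associates with RBFOX splicing factors, which by themselves recognise UGCAUG and, more weakly, GCACG. Its subunits bind other sequences, and many RNA-binding proteins also bind transcripts of their own gene or of their partners. The measurements below concern the RNAs of the subunit genes, not the assembled proteins. They ask whether these RNAs carried edits next to RBFOX2, and where in each transcript.

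Edit sites are shown as 21 nt of hg38 in RNA letters, 5′ to 3′ on the transcript strand, with the edited cytosine in capitals in the middle. The first sequence is 30 nt long and carries the hexamer UGCAUG, also in capitals, with the member site that had most converted reads among those listed in the RBFOX2 library only. The next 4 are the MATR3 site with the third most converted reads in that library, the second lying beside the hexamer, and the leading sites of DDX5, HNRNPC and HNRNPM. They show the base before the edited cytosine.
MATR3, chr5:139330296-139330325, + strand, 3′UTR: aauuUGCAUGuauaauuuguguuuaCuugu
MATR3, chr5:139329464-139329484, + strand, 3′UTR: aaauacaauaCugauaguuag
DDX5, chr17:64500027-64500047, - strand, coding: cucagcaauaCggaaguaaug
HNRNPC, chr14:21210956-21210976, - strand, 3′UTR: cucuuuaugaCuuaacaauaa
HNRNPM, chr19:8488989-8489009, + strand, 3′UTR: uuuuuaaugaCugggguucca

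For comparison, the following are the leading enzyme-only sites of the 5 genes, followed by 2 sites listed in both libraries. The NCOA5 site is 1 of 14 with the same read count and the first of them by position. Those of MATR3, HNRNPC and DDX5 were also tied with sites in other regions of the transcript, and are likewise the first by position.
HNRNPM, enzyme-only, chr19:8488853-8488873, + strand, 3′UTR: aagcaguugcCuuuuuuaaac
MATR3, enzyme-only, chr5:139307352-139307372, + strand, 5′UTR: uuuuggccguCuuuaaaaaaa
HNRNPC, enzyme-only, chr14:21210842-21210862, - strand, 3′UTR: gcuucccuaaCugcaaaggca
DDX5, enzyme-only, chr17:64499749-64499769, - strand, 3′UTR: uauuucucuaCauuccugaaa
NCOA5, enzyme-only, chr20:46061141-46061161, - strand, 3′UTR: ugagucccugCcagugguuaa
HNRNPC, both libraries, chr14:21211023-21211043, - strand, 3′UTR: cuuccuuugaCgcuccuagua
DDX5, both libraries, chr17:64499848-64499868, - strand, 3′UTR: uguuaucugaCaagauaguua

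A position was listed only when its converted reads exceeded 0.002 of all reads of the gene. The fewest converted reads that could be listed therefore rose with depth, and an unlisted position may have had fewer converted reads rather than none. The denominator was the reads of the whole gene, so the coverage at a single position is not known. Over all loci the RBFOX2 library held 121930 sites and 2431345 gene reads, and the enzyme-only library 103684 sites and 2233600 gene reads. NEFM, a neurofilament gene known to be expressed in this line, had 281 reads with the RBFOX2 antibody and 263 without it, and the kidney developmental gene WT1 had 5 and 7. PAX8, LHX1 and the liver, blood, connective tissue and islet markers ALB, PTPRC, COL1A1 and INS had no locus.

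The 5 genes had 82 sites with the RBFOX2 antibody and 41 without it, of which 11 were listed in both libraries. Leaving these out, 71 and 30 sites remained. The study removed edits found across all its replicates and samples as putative variants, whereas here listing in both libraries was enough. Scaled by the library totals of 109357 and 91111 such sites, the log2 ratio was 0.97, with an exact 95% interval from 0.34 to 1.65. With shared sites kept it was 0.76. Without MATR3 the counts were 38 and 24 and the log2 ratio was 0.39 (-0.38 to 1.20), an interval that includes no difference. These intervals, and all below, cover counting error only.

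**Figure D1:**
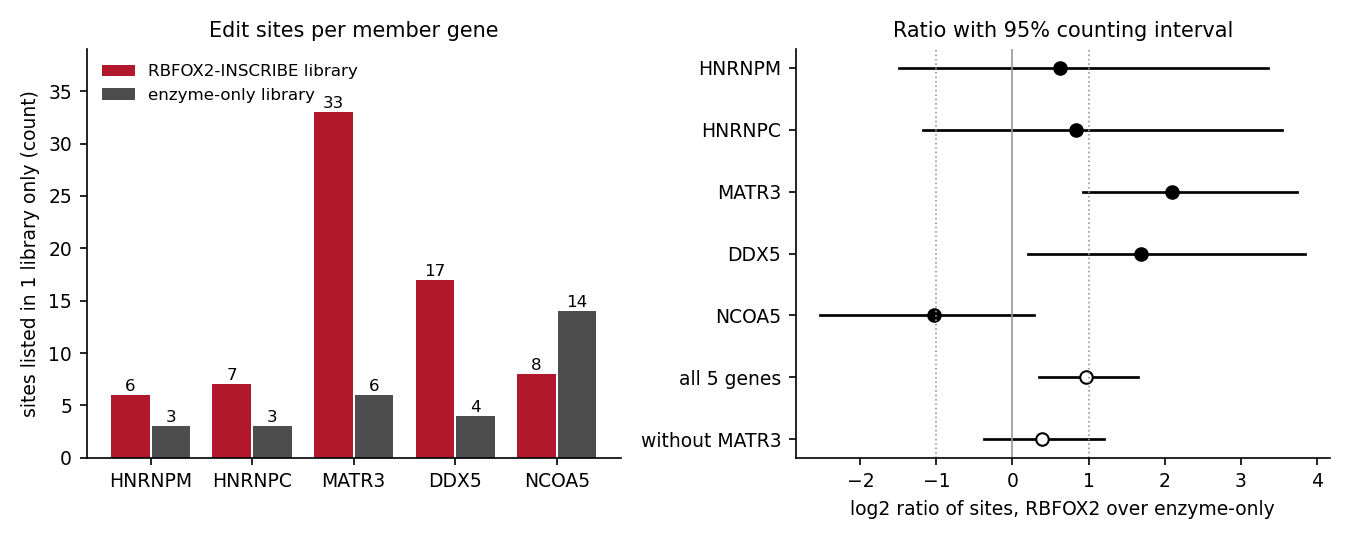
Sites listed in 1 library only for each subunit gene (left, bars) and the log2 ratio of RBFOX2 over enzyme-only sites scaled by library totals (right, points, with 95% counting intervals as lines; open points pool genes, dotted lines mark 2-fold). MATR3 had 33 sites against 6 and DDX5 17 against 4, while NCOA5 had 8 against 14.

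MATR3 encodes matrin 3, a nuclear matrix protein that binds RNA and regulates splicing. Its locus (chr5:139274100-139331669, + strand) had 838 reads after RBFOX2-INSCRIBE and 670 in the control, and a position needed 2 converted reads in either to be listed. The RBFOX2 library listed 35 sites and the enzyme-only library 8, of which 2 were shared. The 33 and 6 sites of 1 library gave a log2 ratio of 2.10 (0.92 to 3.74), rank 108 among the 3591 loci with at least 20 such sites. Its value was 1.50 (0.32 to 3.14) when the library totals counted only sites of 2 or more converted reads. Summed over all its listed sites, MATR3 had 137 converted reads per 1000 gene reads with the RBFOX2 antibody and 26.9 without it.

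In MATR3 the libraries differed mainly in the 3′UTR. Of the 33 RBFOX2 sites 29 lay there and 4 in coding sequence, whereas 0 of the 6 enzyme-only sites lay in the 3′UTR, 5 were coding and 1 was in the 5′UTR. Of 374 cytosines in the 3′UTR of the representative (MANE Select) transcript, 30 were listed in the RBFOX2 library (8.02%, 5.48 to 11.3) and 1 in the control (0.267%, 0.00677 to 1.48), here with shared sites counted. Of 472 coding cytosines, 5 and 6 were listed. The interval of the 3′UTR share in the RBFOX2 library thus lay above that of the control, and the coding shares overlapped.

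The highest read counts of MATR3 surrounded a UGCAUG at chr5:139330300-139330305, the hexamer printed first above. Within 50 nt of it, 9 cytosines were listed in the RBFOX2 library with 49 converted reads together, and 0 in the control. Upstream of the hexamer, in transcript order, the positions 139330257, 139330263, 139330269, 139330282 and 139330292 had 3, 3, 4, 5 and 8 converted reads. Downstream, 139330321, 139330328, 139330332 and 139330343 had 14, 4, 5 and 3. On each side the position nearest to the hexamer had the most converted reads.

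The strongest of these, 139330321, was converted in 14 of 838 gene reads (1.67%, 0.916 to 2.79). The same position was not listed in the enzyme-only library, where at most 1 of 670 reads can have been converted, which allows up to 0.829%. These intervals do not overlap. For 139330292, with 8 of 838 reads (0.955%, 0.413 to 1.87), they do, as for the other 7 positions, so that of the 9 only the strongest stood clear of the bound set by the control. That site was picked for its read count among sites unlisted in the control, so the separation is a description and no test.

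By distance, 4 of the 6 cytosines of the representative transcript from 1 to 50 nt downstream of the hexamer were listed in the RBFOX2 library (66.7%, 22.3 to 95.7) and 5 of 12 from 1 to 50 nt upstream (41.7%, 15.2 to 72.3). In the control 0 of the 6 and 0 of the 12 were listed, which allows up to 45.9% and 26.5%, so that the intervals overlap. From 51 to 200 nt upstream the number was 7 of 27 (25.9%, 11.1 to 46.3), and farther upstream it was 19 of 615 (3.09%, 1.87 to 4.78). From 51 to 200 nt downstream it was 0 of 22. Of the 64 isoform models of the locus, 37 ended beyond 50 nt past the hexamer and 4 beyond 200 nt, so few models covered the sequence beyond 200 nt. Many of the 37, such as PB.18104.27, ended at 139330439, so they covered part of the range from 51 to 200 nt. Whether the model ends account for the 0 of 22 was not tested. The enzyme-only library listed 0 cytosines in all of these ranges except the farthest upstream, with 8 of 615.

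**Figure D2:**
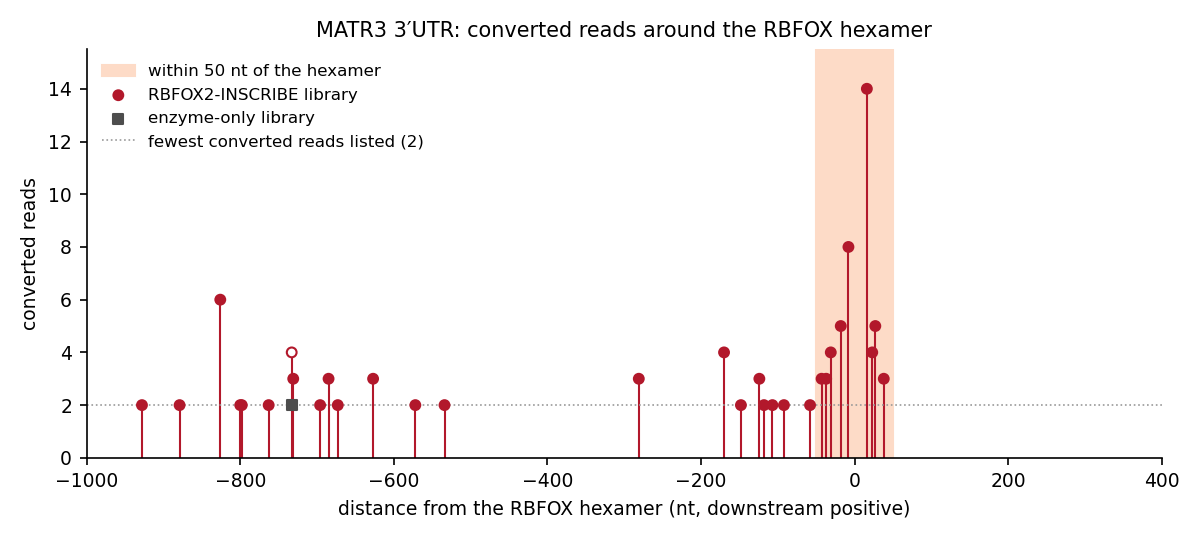
Converted reads of each listed MATR3 position from 1000 nt upstream to 400 nt downstream of the UGCAUG hexamer in the 3′UTR, against distance in nt (circles RBFOX2 library, square enzyme-only library, open circle listed in both; shaded, within 50 nt; dotted line, the fewest converted reads that were listed, 2). The points rise to 8 and 14 converted reads on the flanks of the hexamer, where the enzyme-only library lists no position.

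A GCACG, the weaker RBFOX motif, lies at chr5:139330249-139330253, upstream of the same hexamer. It had 7 RBFOX2 sites and 0 enzyme-only sites within 50 nt, and 5 of the 7 also lay within 50 nt of the hexamer, so the contributions of these motifs overlap. The other 22 of the 33 MATR3 sites had neither motif within 50 nt. Another 3 UGCAUG in exons of the locus, among them 1 at chr5:139330483-139330488, had no listed site in either library.

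Among all 6775 UGCAUG in exons of loci listed in both libraries, 14 hexamers in 13 genes had at least 9 RBFOX2 sites within 50 nt, and 10 of these 14 had no enzyme-only site. No hexamer had 9 or more enzyme-only sites. By converted reads the MATR3 hexamer ranked 6 in the RBFOX2 library. Depth differs between genes, so these ranks describe counts and not binding.

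DDX5 encodes p68, a DEAD-box RNA helicase that takes part in splicing and transcription. Its locus (chr17:64498255-64507562, - strand) had nearly the same depth in both libraries, 1057 and 1061 reads, and 3 converted reads were needed in each. The RBFOX2 library listed 22 sites and the enzyme-only library 9, with 5 shared. The remaining 17 and 4 sites gave a log2 ratio of 1.70 (0.21 to 3.85). Scaled by library totals of sites with at least 2 converted reads, which all of these sites had, it was 1.10 (-0.39 to 3.26), an interval that includes no difference. Summed over listed sites there were 83.3 converted reads per 1000 gene reads against 29.2.

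By the representative transcript, 12 of the 17 DDX5 sites of the RBFOX2 library lay in the coding sequence and 5 in the 3′UTR. All 17 lay in a 3′UTR of some annotated transcript. Over all annotated transcripts the split thus depends on whether coding sequence or 3′UTR is read first. For MATR3 the number in the 3′UTR would only go from 29 to 30 of 33. Of 339 coding cytosines 14 were listed in the RBFOX2 library (4.13%, 2.28 to 6.83) and 4 in the control (1.18%, 0.322 to 2.99). The leading site, 64500037, was converted in 6 of 1057 reads (0.568%, 0.209 to 1.23), and 64499949, 64500077 and 64502969 in 5 each. None of these separated from the control, in which up to 2 of 1061 reads (upper limit 0.679%) could go unlisted. The 4 sites listed only in the control had 3 converted reads each. They were 64499759 in the 3′UTR, 64500081 and 64500116 in coding sequence, and 64500956 in a non-coding exon. DDX5 exons hold 2 UGCAUG, and no site of either library lay within 50 nt of them.

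HNRNPM and HNRNPC encode abundant heterogeneous nuclear ribonucleoproteins, the first binding GU-rich and the second uridine-rich RNA. HNRNPM (chr19:8444910-8489117, + strand) had 2429 and 2112 reads, and a position needed 5 converted reads. It had 7 and 4 sites, 1 of them shared, and the remaining 6 and 3 gave a log2 ratio of 0.63 (-1.49 to 3.36). The RBFOX2 sites led with 8488999, at 10 of 2429 reads (0.412%, 0.198 to 0.756), followed by 8488881 with 7. The coding position 8465339 had 6, as had 8488987 and 8489074 in the 3′UTR. The leading enzyme-only site, 8488863, had 7 of 2112 reads (0.331%, 0.133 to 0.682). Both libraries had most of their HNRNPM sites in the 3′UTR, 5 of 6 and 3 of 3, and its exons hold no UGCAUG.

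HNRNPC (chr14:21209138-21269568, - strand) was the deepest member, with 4255 and 3926 reads, and needed 9 and 8 converted reads. It had 10 and 6 sites, 3 of them shared, and the remaining 7 and 3 gave a log2 ratio of 0.84 (-1.17 to 3.54). The leading RBFOX2 sites were 21210966 with 13 converted reads (0.306%, 0.163 to 0.522) and 21210751 and 21211081 with 10 each, all in the 3′UTR. The leading enzyme-only site, 21210852, had 10 (0.255%, 0.122 to 0.468), as had 21269301 in the 5′UTR. For both HNRNPM and HNRNPC the interval of the ratio includes no difference. The 1 exonic UGCAUG of HNRNPC had no site.

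NCOA5 encodes a coregulator of nuclear receptors and was the member with most sites in the control. Its locus (chr20:46061003-46089962, - strand) had 187 and 134 reads, and 1 converted read was enough to be listed. All of its 8 RBFOX2 and 14 enzyme-only sites rested on 1 converted read each, and none was shared. The log2 ratio was -1.03 (-2.53 to 0.28), which includes no difference. A or U preceded the edited cytosine at 5 of the 8 and 6 of the 14 sites.

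ILF2 encodes NF45, a subunit of a nuclear complex that binds double-stranded RNA. Its locus (chr1:153661751-153670987, - strand) had 26 isoform models and no listed position in either library, so its reads and the bound on its editing are not known here. HNRNPUL2, which encodes an SAP-domain hnRNP U-like protein, had no locus of its own. Its exons fell in a locus (chr11:62690274-62727457, - strand) that shared 4001 nt of exons with the readthrough gene HNRNPUL2-BSCL2 and 3094 nt with HNRNPUL2. This locus had 355 and 282 reads and 23 sites in each library, of which 7 and 9 lay in HNRNPUL2 exons, each with 1 converted read. No site of it was within 50 nt of UGCAUG. It was left out of the pooled counts.

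**Figure D3:**
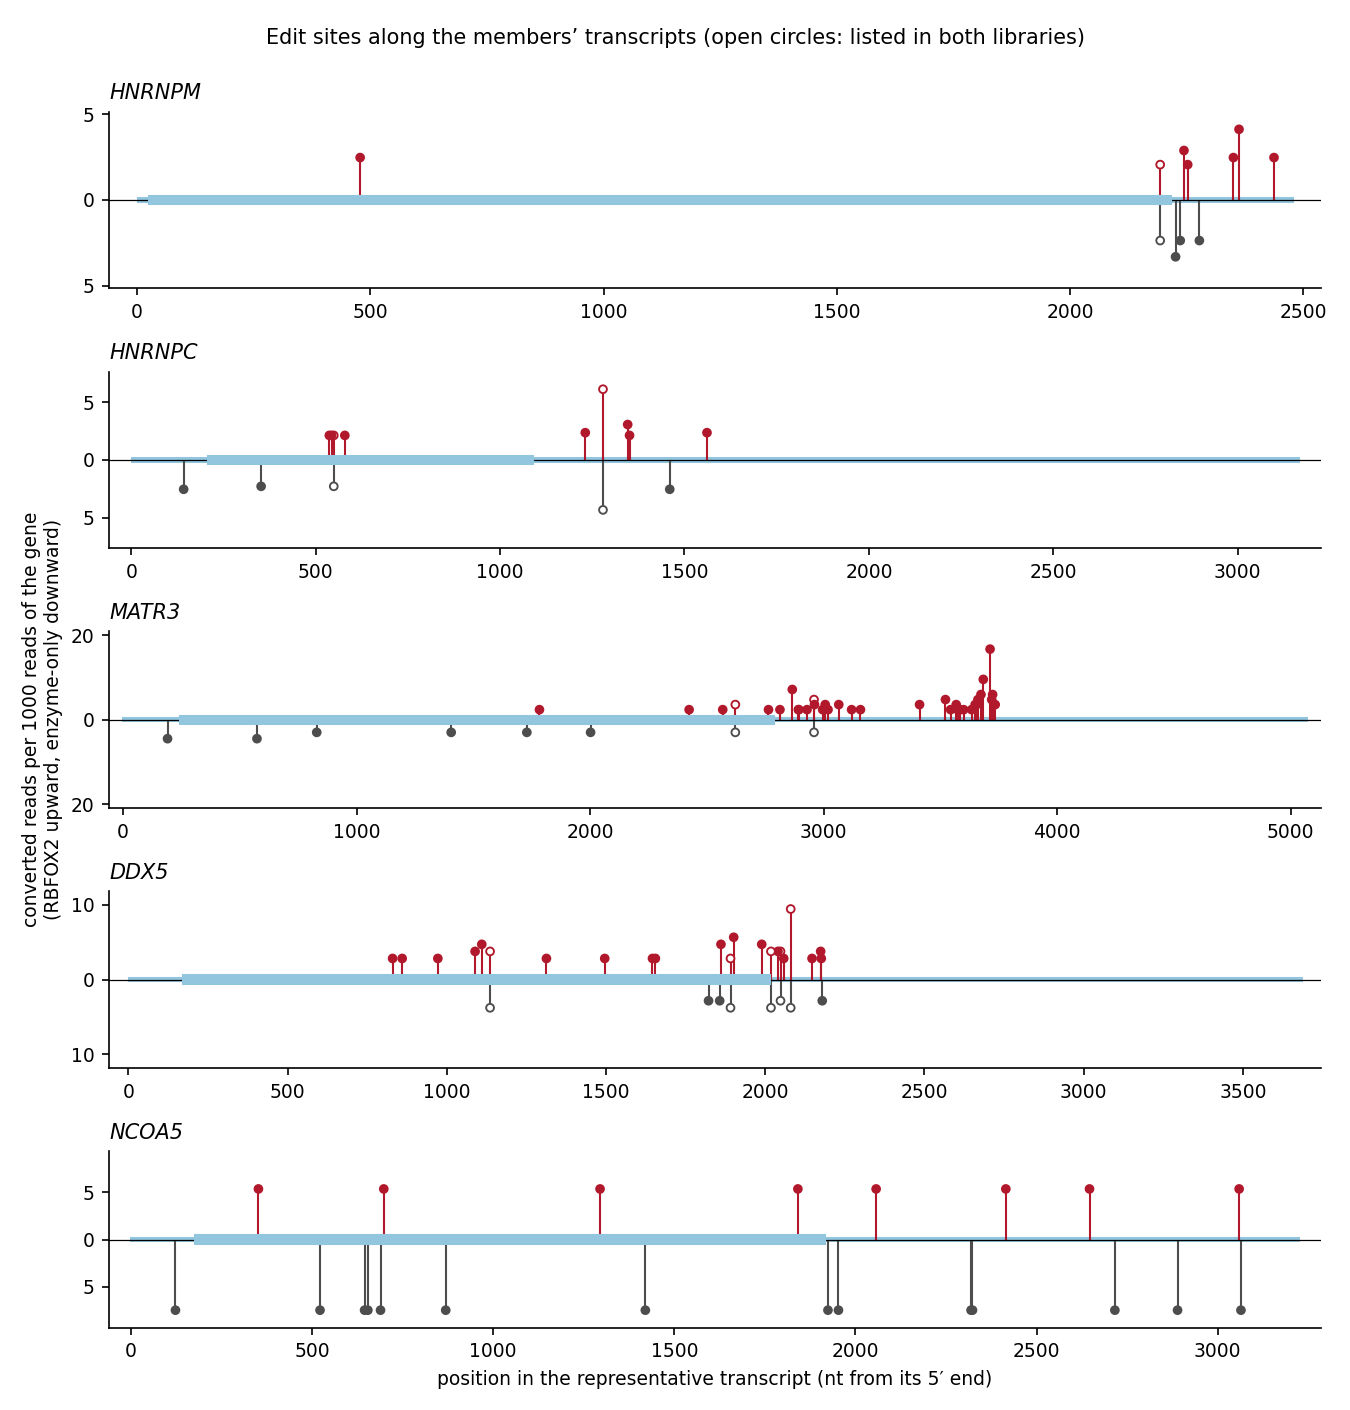
Listed sites along the representative transcript of each of 5 subunit genes (x axis, nt from its 5′ end; thick bar coding sequence, thin bars UTRs), with converted reads per 1000 reads of the gene upward for the RBFOX2 library and downward for the enzyme-only library; open circles were listed in both. The y scale differs between genes. MATR3 sites of the RBFOX2 library crowd in the 3′UTR around the hexamer, up to 14 of 838 reads, and no MATR3, DDX5 or HNRNPC site lies in the last stretch of the transcript.

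A locus entered the comparison with the rest of the transcriptome when it had at least 20 sites of 1 library, which 3 of the 5 genes had. MATR3 and DDX5 had log2 ratios over 1, as did 16.8% of the 3591 loci, and NCOA5 had a ratio under -1, as did 14.5%. The median log2 ratio was 0.08 over these loci and 0.84 over the 5 genes, 2 of which fell short of 20 sites. These are 3 genes, too few to set their share against the background.

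Pooled over the 5 genes, every site near UGCAUG belonged to the RBFOX2 library and lay at the MATR3 hexamer. Within 50 nt were 9 of the 71 RBFOX2 sites (12.7%, 5.96 to 22.7) and 0 of the 30 control sites, which allows up to 11.6%. Of the exonic cytosines of these genes 1.69% lay as close. Over all loci the shares were 3.65% of RBFOX2 sites, 2.10% of enzyme-only sites and 2.24% of exonic cytosines. Without MATR3 the counts were 0 of 38 and 0 of 24.

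APOBEC1 prefers A or U before the edited cytosine. That base was A or U at 68 of 71 RBFOX2 sites (95.8%, 88.1 to 99.1) and at 20 of 30 enzyme-only sites (66.7%, 47.2 to 82.7), against 49.5% of exonic cytosines. The interval of the RBFOX2 sites lay above the exonic share, and that of the enzyme-only sites included it. Over all loci the base was A or U at 71.7% of RBFOX2 and 63.9% of enzyme-only sites. In MATR3 it was so at 33 of 33 and 6 of 6. The share moved with the number of converted reads: 63 of the 71 sites had at least 2 converted reads but 16 of the 30, and 14 of the 30 were the single-read sites of NCOA5. Over all loci 14.3% and 9.45% of sites had as many. Whether read number accounts for the difference in the base before the cytosine was not tested.

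The predicted effect on the protein sequence was read from the representative transcripts. Of the 24 coding RBFOX2 sites, 15 were synonymous (62.5%, 40.6 to 81.2), 8 would change an amino acid and 1, in DDX5, would create a stop codon. Of the 14 coding enzyme-only sites, 3 were synonymous (21.4%, 4.66 to 50.8) and 11 would change an amino acid. A C-to-U change would be synonymous at 738 of the 1926 coding cytosines of these genes (38.3%), and at 39.1% of those with A or U before them. The intervals of the libraries overlap.

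The 11 sites listed in both libraries had edit fractions under 1% in both. The highest, 64499858 in the DDX5 3′UTR, was converted in 10 of 1057 RBFOX2 reads (0.946%, 0.455 to 1.73) and in 4 of 1061 control reads (0.377%, 0.103 to 0.962). At 21211033 in HNRNPC, with most converted reads of any member site, the numbers were 26 of 4255 (0.611%, 0.400 to 0.894) and 17 of 3926 (0.433%, 0.252 to 0.692). At 21234247, also in HNRNPC, the order was the opposite, with 13 and 18. This position is intronic in GENCODE and exonic in 3 of the 101 isoform models of the locus. The intervals overlapped at all 11 sites, and each had A or U before the cytosine.

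**Figure D4:**
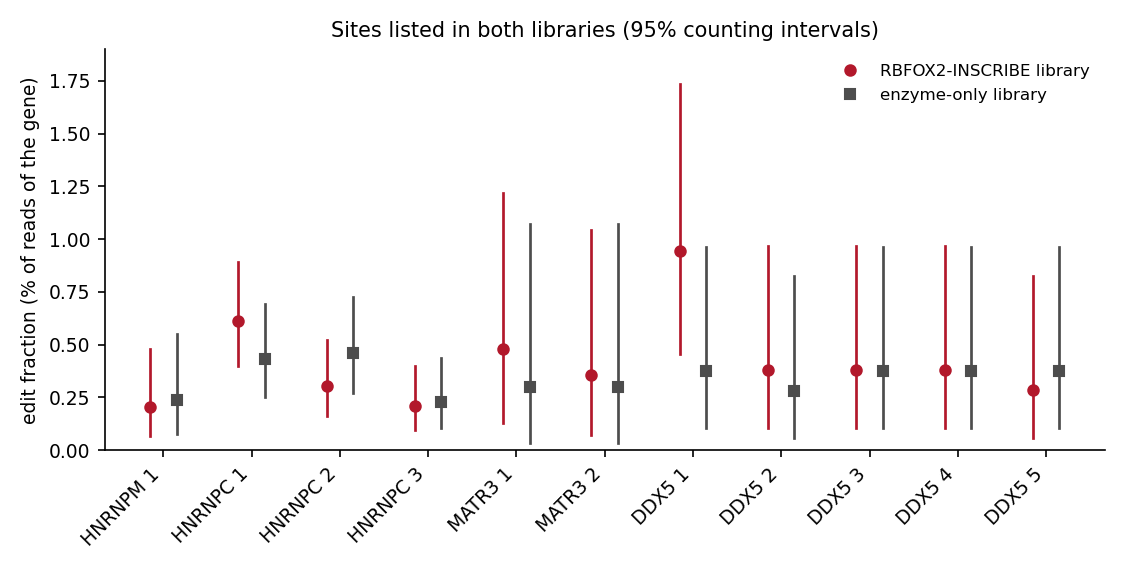
Edit fraction, as a percentage of the reads of the gene, at the 11 sites listed in both libraries, numbered within each gene from the highest RBFOX2 value (circles RBFOX2 library, squares enzyme-only library, lines 95% counting intervals). The intervals overlap at every site, and the largest difference is at DDX5 1, with 0.946% against 0.377%.

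In MATR3, DDX5 and HNRNPC the last stretch of the representative transcript held no listed site, and the sites nearest to its 3′ end were 1335, 1506 and 1605 nt away. The isoform models of these genes ended, in the median, 1268, 1368 and 1409 nt before the end of that transcript. In HNRNPM and NCOA5 the models ended 4 and 12 nt before it, and sites came within 41 and 161 nt. The 3′ limits of listed sites thus lay close to the ends of the models.

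At the level of isoforms, editsC was taken as the share of the exonic cytosines of an isoform model that were listed in 1 library. Reads were not assigned to isoforms, so isoforms of a gene share their sites and are no replicates. Of the 284 isoform models of the 5 genes, 251 had a higher editsC in the RBFOX2 library, 29 a lower and 4 an equal one. This editsC was not scaled by the library totals, which were larger for the RBFOX2 library. No share over all isoform models is given here, and the counts follow how many models a gene has. The 101 HNRNPC models rest on 7 and 3 sites, for which the interval of the ratio includes no difference. All 101 HNRNPC and 52 DDX5 models were higher in the RBFOX2 library and all 13 NCOA5 models were lower, while MATR3 had 51 higher and 12 lower. The median editsC of MATR3 models was 6.54% and 0.719% in the RBFOX2 and enzyme-only libraries, that of DDX5 3.04% and 0.694%, and that of HNRNPC 1.77% and 0.580%.

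MATR3 models varied most. The 37 that contain the hexamer had a median editsC of 7.52% (range 4.57 to 14.4) with the RBFOX2 antibody and 0.604% without it. The 27 without it had 2.69% (range 0 to 17.6) and 1.02%. Because reads were not assigned to isoforms, every model with the hexamer is credited with the listed sites around it. This contrast therefore reflects which exons a model holds and does not test a difference between isoforms. The largest difference between the libraries was at PB.18104.113, a model of 2 exons and 68 cytosines that ends before the hexamer, with 12 sites and 0. The lowest was at PB.18104.31, a model of 8 exons that ends within the coding part, with 0 sites and 4. In DDX5 the range of the difference was from 1.04 percentage points at PB.44780.55 to 5.62 at PB.44780.48, and the first of these lacks the 3′ part of the gene.

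**Figure D5:**
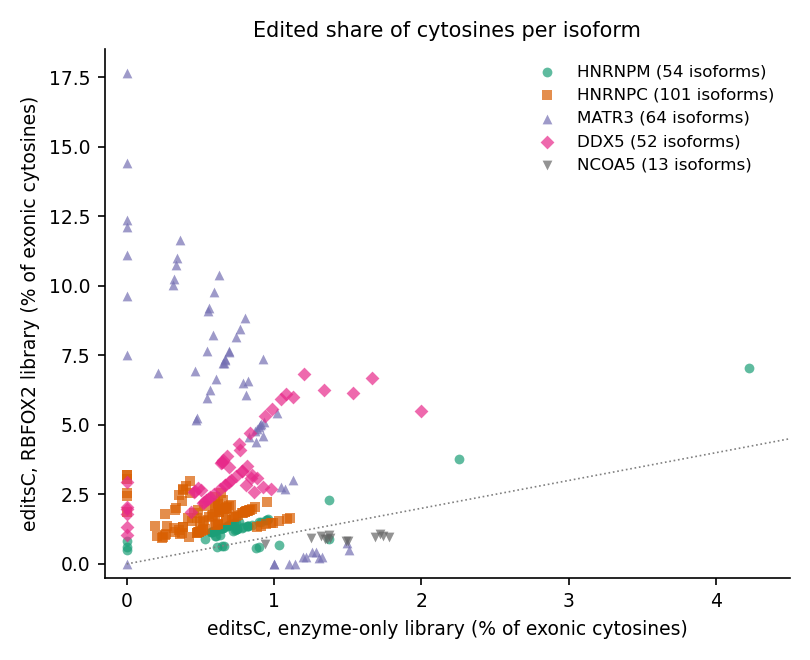
Share of exonic cytosines listed as edited (editsC, %) of each isoform model in the enzyme-only library (x axis) and the RBFOX2 library (y axis), with 1 point per model, symbols by gene, and equal values on the dotted line; the axes have different scales. MATR3 models reach 17.6% in the RBFOX2 library, and all 13 NCOA5 models lie below the line.

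The other genes of the complex and the relatives of its subunits were counted from a list, of which 8 are given here. Of these, 6 had a listed site in at least 1 library, and 2 had 20 or more sites of 1 library. HNRNPH1, which encodes a G-tract-binding subunit of LASR, had 16 sites with the RBFOX2 antibody and 6 without it, at 659 and 551 reads, a log2 ratio of 1.08 (-0.28 to 2.79). The RBFOX2 gene had 9 sites in each library after leaving out shared ones.

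HNRNPUL1, the paralogue of HNRNPUL2, had 1 RBFOX2 and 61 enzyme-only sites, a log2 ratio of -5.62 (-11.5 to -3.66). Its 503 and 452 reads lay on either side of 500, above which 1 converted read is not listed. Of all its listed sites, 3 with the RBFOX2 antibody and 4 without it had at least 2 converted reads. MYEF2, a relative of HNRNPM, had 2 and 7 sites, RALY, a relative of HNRNPC, 4 and 7, and HNRNPU 0 and 2. DDX17, the paralogue of DDX5, and RBM20, a relative of MATR3, had no listed site.

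By sites per 1000 gene reads in both libraries, the locus nearest to MATR3 was ARL6IP5, at a distance of 0.19 on the log2 scale among 3580 loci. It had 35.6 and 9.12 sites per 1000 reads against 40.0 and 9.70 in MATR3. ATP5PB was nearest to DDX5 (0.21), PPP2R5C to NCOA5 (0.09), and HMGN1 to both HNRNPM (1.06) and HNRNPC (1.86). The last pair of distances was the largest. In the RBFOX2 library HNRNPM and HNRNPC had fewer sites per 1000 reads than HMGN1, 2.68 and 1.76 against 5.59. In the enzyme-only library HNRNPC had fewer, 0.891 against 1.58, and HNRNPM slightly more, 1.66. Likeness was measured over 2 libraries only.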

How the data were processed

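The 2 libraries were grouped by their descriptions in the labels, which give them the numbers 2 (RBFOX2) and 1 (enzyme-only). The labels name a PacBio Iso-Seq kit and hg38. The methods of the study describe another long-read kit, pbmm2 alignment and IsoQuant isoforms, so the tables may come from another run, and the software behind their collapse identifiers is not given in the sources used here. For each site the values deposited are the count of converted reads, the count of reads of its gene, the edit fraction (converted reads over gene reads, all above 0.002) and a confidence score by the authors, which was not used. The deposited isoform models carry positions and no expression values.

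Loci were matched to GENCODE 44 with bedtools 2.31.1. Sites shared by the libraries were dropped unless stated, while annotated variants were not removed. Where annotations differed, coding sequence came before 3′UTR and both before other classes. A motif within 50 nt lay wholly inside the 101-nt window of hg38 centred on the cytosine, on its strand. Log2 ratios used a pseudocount of 0.5. Intervals are exact (Clopper-Pearson, 95%, scipy 1.17.1) and cover counting error only, since reads have no molecular identifiers. The counting and intervals were tested on simulated data.

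Sites were named by rule: the 3 RBFOX2 sites of each gene with most converted reads (at least 2), the leading enzyme-only site, sites within 20 nt of UGCAUG and shared sites over 5%, of which there were none. Among tied sites the first by position were taken, and some of the others are given beside them. The MATR3 cluster, other shared sites and the list of relatives are described besides. Of the listed genes, 2 are not reported here. The genes, lists and rules were chosen with earlier results of these data known.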

Additional observations from a re-analysis of the deposited data

Results flagged for a closer look

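Inside the span of HNRNPM, on its strand, another locus without an isoform model had 5 RBFOX2 sites and 2 enzyme-only sites, at no more than 38 reads, with 2 and 1 of them within 50 nt of UGCAUG. These positions belong to no comparison above and stood out because the data outside the main measurement exceeded the control. Such loci held 15 and 19 sites inside HNRNPC and 8 and 7 inside MATR3. No test was possible with 1 library per group.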

How the results depend on the processing

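The log2 ratios of the genes and of the 5 together kept their direction under each alternative that gave a value, and no value reversed. Those of MATR3, DDX5, HNRNPC and HNRNPM became 1.50, 1.10, 0.24 and 0.03 with at least 2 converted reads per site, by the change of library totals alone, while NCOA5 has no such site and no value. Among 104 values under alternatives, 17 moved. With at least 2 converted reads per site, 263 loci had enough sites, against 3591 in the main setting. Of these 263, 71 lay over a log2 ratio of 1 and 35 under -1. Both members with enough sites lay over 1, and the number of members under -1 became 0. In that setting the share with A or U before the cytosine became 100% and 87.5% in the RBFOX2 and enzyme-only libraries. The pooled editsC of the enzyme-only library became 0.246%. With a minimum of 10 sites per locus the counts were 1069 and 935 of 5522 loci. With 50 sites they were 119 and 108 of 1015, with 0 members on either side because none has 50. The share of RBFOX2 sites near UGCAUG was 1.41% within 20 nt and 26.8% within 200 nt. Because the window must hold the whole hexamer, the strongest MATR3 site, 16 nt past the hexamer, was not counted within 20 nt. No share of exonic cytosines is given for these windows. Reading 3′UTR before coding sequence raised the RBFOX2 share in 3′UTRs from 66.2% to 85.9%. Leaving out MATR3, chosen after seeing the data, gave 0% near UGCAUG and 47.4% in 3′UTRs. No paired analysis was possible because each group has 1 library. The numbers of the libraries in the labels differ, and whether they mark replicates is not known.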
